A study of Homo sapiens with 46 samples.

Results

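A block of 7 genes annotated as unprocessed pseudogenes lies on the plus strand of chromosome 1 and resembles 7 mRNA genes of mitochondrial DNA (mtDNA). The genes are MTND1P23, MTND2P28, MTCO1P12, MTCO2P12, MTATP8P1, MTATP6P1 and MTCO3P12, taken by name from the 58735 genes listed, and each was set beside the mtDNA gene it resembles (MT-ND1, MT-ND2, MT-CO1, MT-CO2, MT-ATP8, MT-ATP6 and MT-CO3). Their block runs over 5861 bases, chr1:629062-634922 of GRCh38, in the same gene order as in mtDNA. From its start, MTND1P23 (ENSG00000225972) lies at 629062 to 629433, MTND2P28 (ENSG00000225630) at 629640 to 630683, MTCO1P12 (ENSG00000237973) at 631074 to 632616, MTCO2P12 (ENSG00000229344) at 632757 to 633438, MTATP8P1 (ENSG00000240409) at 633535 to 633741, MTATP6P1 (ENSG00000248527) at 633696 to 634376 and MTCO3P12 (ENSG00000198744) at 634376 to 634922. The counts come from poly(A)-enriched RNA of HEK293T cells, a human embryonic kidney line of wild-type genotype, sequenced in 46 libraries of 12 conditions. In 11 conditions the cells had received, for 48 hours and at 2 µM with EndoPorter, a chimera of the pCox4 presequence and a morpholino aimed at 1 mtDNA-encoded mRNA (ATP6, ATP8, COX1, COX2, COX3, CYTB, ND1, ND2, ND3, ND4L or ND5). The control cells had received pCox4 without a morpholino, also with EndoPorter, so the presequence and the carrier are common to all groups. Conditions had 4 libraries each, except COX2 (replicates 2, 3 and 4) and ND2 (replicates 1, 3 and 4) with 3. Replicates 1 and 2 formed batch 1 and replicates 3 and 4 batch 2, prepared on different days with different reagent batches, and all libraries came from the same cell line.

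Nuclear copies of mtDNA arise when fragments of the mitochondrial genome are inserted into chromosomes, where they no longer encode respiratory chain proteins because the nuclear genetic code differs. A recent insertion keeps a sequence close to mtDNA, so a short read of a mitochondrial mRNA can match both places. The matching mtDNA genes encode subunits of complex I (MT-ND1 and MT-ND2), of cytochrome c oxidase (MT-CO1, MT-CO2 and MT-CO3) and of ATP synthase (MT-ATP8 and MT-ATP6). Most mitochondrial mRNAs are abundant and carry short poly(A) tails, and these libraries were made from poly(A)-enriched RNA.

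The sequences were compared first, since they set where a read can tell the pseudogene from mtDNA. Identity to the mtDNA gene over the aligned part was 96.5% for MTND1P23, 98.4% for MTND2P28, 98.6% for MTCO1P12, 98.0% for MTCO2P12, 97.6% for MTATP8P1, 98.5% for MTATP6P1 and 98.2% for MTCO3P12. MTND1P23 covers only bases 592 to 956 of MT-ND1, and MTCO3P12 covers only bases 1 to 547 of MT-CO3. The other members align to the whole mtDNA gene. Of all 50-base windows in a member, the length of a read given in the sample records, those found in no mtDNA transcript numbered 123 of 323 in MTND1P23, 562 of 995 in MTND2P28, 756 of 1494 in MTCO1P12, 449 of 633 in MTCO2P12, 145 of 158 in MTATP8P1, 337 of 632 in MTATP6P1 and 273 of 498 in MTCO3P12. All members therefore hold stretches that differ from mtDNA as well as stretches that do not.

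The stretches below are shown because they cover single differences in the 3 members with the most counts and a cluster of differences in a member with few. Each pair gives the chromosome 1 sequence and then the mtDNA sequence of GRCh38, 5′ to 3′ on the plus strand, with the differing bases in capitals. Positions of substitutions count from 1 at the first base of the mtDNA gene, and the mtDNA base stands first.
MTATP6P1, A334G, chr1:634004-634054: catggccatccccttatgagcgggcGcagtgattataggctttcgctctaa
MT-ATP6, MT:8835-8885: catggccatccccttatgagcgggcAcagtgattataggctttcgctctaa
MTND2P28, A300G, chr1:629914-629964: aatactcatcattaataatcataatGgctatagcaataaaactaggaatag
MT-ND2, MT:4744-4794: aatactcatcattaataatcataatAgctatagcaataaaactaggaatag
MTCO1P12, T738C, chr1:631786-631836: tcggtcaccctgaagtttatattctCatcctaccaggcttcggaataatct
MT-CO1, MT:6616-6666: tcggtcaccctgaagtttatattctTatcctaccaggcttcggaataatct
MTCO3P12, C321T, T324C, T334C, A339G and G342A, chr1:634684-634734: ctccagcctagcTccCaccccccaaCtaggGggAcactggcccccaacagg
MT-CO3, MT:9515-9565: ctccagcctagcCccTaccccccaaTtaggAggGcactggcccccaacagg
A334G was the only substitution in 50 windows of MTATP6P1, A300G in 33 windows of MTND2P28 and T738C in 50 windows of MTCO1P12. Which base the mtDNA of these HEK293T cells carries at such positions was not analysed here, and mtDNA of the reference genome may differ from it.

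The sites at which the chimeras were aimed are shown because they say whether the pseudogene carries the target too. The COX1, COX2 and COX3 sites are identical in the pseudogene, and the ATP8 site differs from it by G27A.
COX1 site, MT:5904-5922 and chr1:631074-631092: atgttcgccgaccgttgac
COX2 site, MT:7586-7608 and chr1:632757-632779: atggcacatgcagcgcaagtagg
COX3 site, MT:9208-9225 and chr1:634377-634394: tgacccaccaatcacatg
ATP8 site in mtDNA, MT:8371-8393: ccaactaaatactaccgtatgGc
ATP8 site in MTATP8P1, chr1:633540-633562: ccaactaaatactaccgtatgAc
The ND1 site, bases 1 to 17 of MT-ND1, lies outside the part that MTND1P23 covers. The ND2 and ATP6 sites were not placed here, since their published morpholino letters matched MT-ND2 and MT-ATP6 over 12 bases at most. The first substitution is T267C in MTND2P28 and G19A in MTATP6P1, both after the ranges that the paper names for these sites.

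Levels are given as CPM (counts scaled to a fixed TMM-adjusted library size), and as CPM per kb of gene where genes are compared with each other. The depth was 18876395 to 100698084 counts (median 23413171), and COX3 replicate 4 was the only library over 28121898. Of the markers of the cell line, VIM had a median of 412 CPM, NEFL 200 CPM and PAX2 7.31 CPM, and NEFM was low at 0.972 CPM. Of the markers of cells that should be absent, PTPRC (leukocytes) had a median of 0.0892 CPM, ALB (hepatocytes) 0.190 CPM and COL1A1 (fibroblasts) 25.0 CPM. The 7 pseudogenes together took 0.0248% to 0.0537% of all counts in a library.

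The members differed widely in level although they share 1 block. MTATP6P1 was highest, with a median of 315 CPM per kb and a range of 141 to 514 over the 46 libraries. MTND2P28 followed at 111 CPM per kb (83.0 to 251), and MTCO1P12 at 22.0 CPM per kb (7.76 to 36.5). These ranges left MTATP6P1 and MTND2P28 overlapping, and MTCO1P12 below both in every library. MTND1P23 stood at 1.04 CPM per kb (0.239 to 2.84), MTCO2P12 at 0.259 (0 to 0.532), MTCO3P12 at 0.173 (0 to 0.536) and MTATP8P1 at 0 (0 to 0.228). The last 3 overlapped with each other and did not separate in order, and the highest libraries of MTCO2P12 and MTCO3P12 lay above the lowest of MTND1P23. Of all 430152 counts on the members, MTATP6P1 took 56.4%, MTND2P28 34.0% and MTCO1P12 9.42%, while MTND1P23 had 483 counts, MTCO2P12 216, MTCO3P12 124 and MTATP8P1 8 over all libraries.

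**Figure D1:**
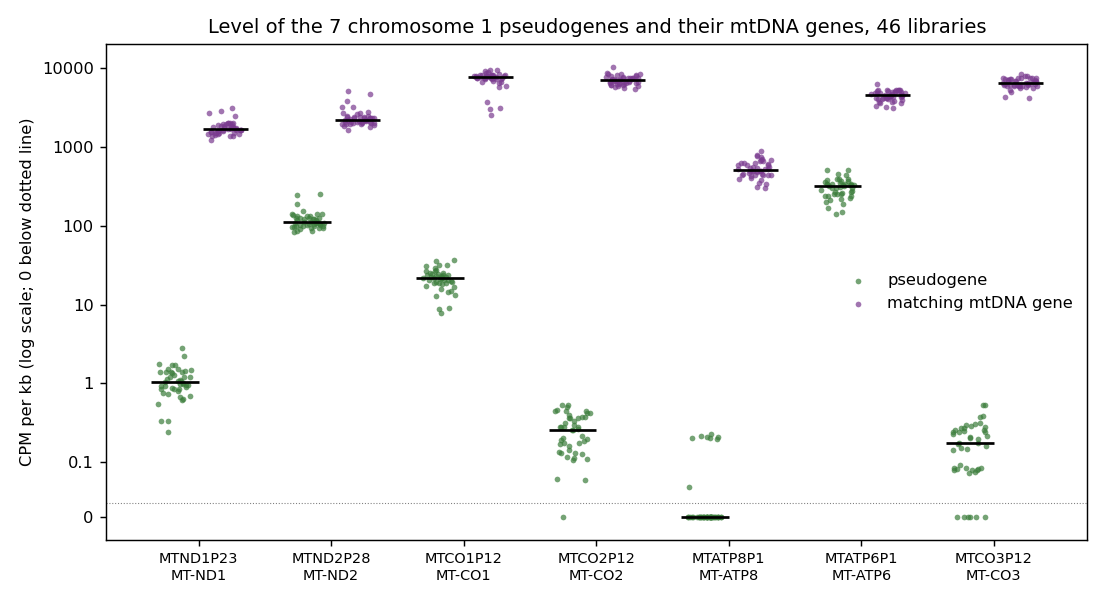
Level of each pseudogene (green) and of the mtDNA gene it resembles (purple) in CPM per kb on a log axis, 1 point per library (46 libraries), with the median as a black line and libraries at 0 under the dotted line. Medians of the pseudogenes ran from 0 for MTATP8P1 to 315 CPM per kb for MTATP6P1, and those of the mtDNA genes from 511 for MT-ATP8 to 7714 for MT-CO1.

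The order of the pseudogenes was not that of their mtDNA genes. Per kb, the median was 7714 CPM for MT-CO1, 7083 for MT-CO2, 6505 for MT-CO3, 4538 for MT-ATP6, 2224 for MT-ND2, 1688 for MT-ND1 and 511 for MT-ATP8. MTATP6P1 thus had the highest level of the 7, while 3 of the mtDNA genes lay above MT-ATP6. As a share of the count of the mtDNA gene in the same library, the median was 6.58% for MTATP6P1, 4.98% for MTND2P28 and 0.291% for MTCO1P12. The share was 0.0242% for MTND1P23, 0.00357% for MTCO2P12 and 0.00195% for MTCO3P12, and MTATP8P1 had no count in 38 of 46 libraries, which allows up to 3 counts in each. The number of windows found in no mtDNA transcript did not follow these levels: per such window and library, MTATP6P1 had 15.7 counts, MTND2P28 5.66, MTCO1P12 1.17, MTND1P23 0.0854, MTCO2P12 0.0105, MTCO3P12 0.00987 and MTATP8P1 0.00120. Windows found in another nuclear transcript numbered 131 in MTCO2P12 and 13 in MTCO1P12. Those found in no other transcript at all numbered 343 of 633 in MTCO2P12 and 751 of 1494 in MTCO1P12. How reads that match a pseudogene and mtDNA equally well were counted is not given in the sources used here, so the share of these counts that came from chromosome 1 was not tested. MTATP8P1 and MTATP6P1 overlap by 46 bases and MTATP6P1 and MTCO3P12 by 1, and all 7 lie within AL669831.3 on the opposite strand, which had 6 to 101 counts per library.

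The main question was whether a pseudogene moved when an mtDNA mRNA was silenced, and whether its own mtDNA gene moved with it. Of the 7 members, 4 had enough counts to be tested (MTND1P23, MTND2P28, MTCO1P12 and MTATP6P1), giving 44 tests against the control, of which 7 passed an adjusted p of 0.05 (edgeR quasi-likelihood test, Benjamini-Hochberg over 20272 genes), 6 of them higher and 1 lower. All 7 calls were on MTCO1P12 and MTND2P28. Over all genes tested the share called was 0.00987% after ATP6, 0.0641% after ATP8, 0.0543% after COX1, 0.469% after COX2, 0.306% after COX3, 0.548% after CYTB, 0.0888% after ND1, 0.0247% after ND2, 0.00987% after ND3, 0.148% after ND4L and 0.158% after ND5 silencing. In 3 of the 7 member calls the mtDNA gene was called as well, in the same direction, and in 2 tests the mtDNA gene was called while the member was not (MTATP6P1 after COX3 and MTND1P23 after ND1 silencing). The 11 comparisons share the same 4 control libraries. In such bulk samples, fewer cells with a transcript and less of it per cell cannot be told apart.

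**Figure D2:**
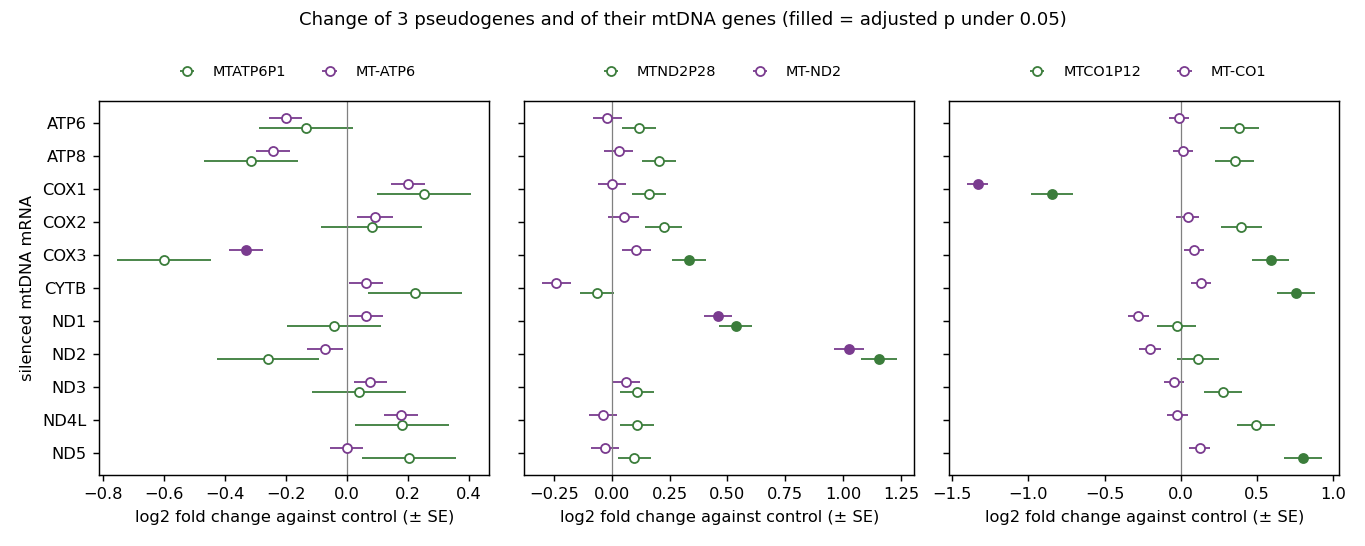
Log2 fold change against control with its standard error for MTATP6P1, MTND2P28 and MTCO1P12 (green) and their mtDNA genes (purple) after each of the 11 silencing treatments, with filled points for an adjusted p under 0.05 in edgeR. MTND2P28 and MT-ND2 were both called after ND1 and ND2 silencing, MTCO1P12 and MT-CO1 after COX1 silencing, and MTCO1P12 alone of its pair after COX3, CYTB and ND5 silencing.

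MTND2P28, the copy of the complex I subunit gene MT-ND2, rose 2.23-fold when MT-ND2 mRNA was targeted. In the control libraries it had 90.0, 96.5, 111.6 and 117.4 CPM in replicates 1 to 4. After ND2 silencing it had 195.5, 256.3 and 262.0 CPM, all above every control library. The log2 fold change was 1.15 ± 0.08 (SE, adjusted p = 1.85e-16, edgeR), beside 1.02 ± 0.07 for MT-ND2 (adjusted p = 9.01e-17). Within batch 1, with 1 ND2 library, MTND2P28 stood at 209.7% of its control and MT-ND2 at 191.4%, and within batch 2 at 226.3% and 206.5%. Leaving out each library in turn kept the call, with a log2 fold change of 1.11 to 1.21.

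MTND2P28 also rose after ND1 silencing, although that chimera is aimed at MT-ND1. Its levels were 145.5, 148.2, 162.7 and 141.8 CPM, again all above the control libraries. The log2 fold change was 0.54 ± 0.07 (adjusted p = 6.38e-06, edgeR), and MT-ND2 rose in the same libraries by 0.46 ± 0.06 (adjusted p = 6.38e-06). The other call of MTND2P28 was after COX3 silencing, with 125.4, 114.0, 137.4 and 146.0 CPM, which overlapped with the control range. Here the log2 fold change was 0.33 ± 0.07 (adjusted p = 0.0187, edgeR), and that of MT-ND2 was 0.11 ± 0.06 (adjusted p = 0.570). The COX3 call was lost in 6 of 8 fits that left out 1 library, without COX3 replicate 1 or 4 or any one of the control libraries, so it rests on all of these. Against the mean of the other 10 treatments in place of the control, MTND2P28 had a log2 fold change of 0.97 after ND2 (adjusted p = 1.73e-19), 0.29 after ND1 (adjusted p = 0.00304) and 0.07 after COX3 silencing (adjusted p = 0.998), and −0.37 after CYTB silencing (adjusted p = 0.000101). The reference for CYTB holds the ND1 and ND2 libraries, in which MTND2P28 was higher. Against the control, the log2 fold change after CYTB silencing was −0.065 (adjusted p = 0.755, edgeR).

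MTCO1P12, the copy of the cytochrome c oxidase subunit gene MT-CO1, was the only member called lower in the edgeR fit of all libraries, after COX1 silencing. The control libraries had 26.8, 24.5, 25.9 and 28.3 CPM, and those of COX1 silencing 13.6, 11.98, 14.1 and 19.7 CPM. The highest of the COX1 libraries stayed below the lowest of the control. The log2 fold change was −0.85 ± 0.14 (adjusted p = 0.000215, edgeR), beside −1.33 ± 0.07 for MT-CO1 (adjusted p = 2.25e-21), whose 4 COX1 libraries ran from 3961 to 5661 CPM against 11115 to 12487 CPM in the control. MTCO1P12 stood at 49.8% of the control in batch 1 and 62.4% in batch 2, and MT-CO1 at 36.6% and 42.8%. The call was not made in batch 2 alone (−0.70, adjusted p = 0.146).

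In most other treatments MTCO1P12 lay above the control while MT-CO1 did not differ at the threshold. It had 37.7, 55.3, 49.1 and 41.8 CPM after ND5 silencing, a log2 fold change of 0.80 ± 0.12 (adjusted p = 8.59e-05, edgeR). After CYTB silencing it had 43.0, 40.8, 45.0 and 49.5 CPM, a log2 fold change of 0.75 ± 0.12 (adjusted p = 0.000514). After COX3 silencing it had 36.1, 30.02, 35.6 and 56.2 CPM, a log2 fold change of 0.59 ± 0.12 (adjusted p = 0.0175). All 3 groups lay above every control library. The log2 fold changes of MT-CO1 in these treatments were 0.12 (adjusted p = 0.584), 0.13 (adjusted p = 0.386) and 0.09 (adjusted p = 0.716). The COX3 call was lost in 5 of 8 fits that left out 1 library (COX3 replicate 1 or 4, or control replicate 2, 3 or 4), and without COX3 replicate 4, the deepest library, the log2 fold change was 0.39 (adjusted p = 0.179). Leaving out any 1 library kept the ND5 and CYTB calls, with log2 fold changes of 0.65 to 0.88 and 0.71 to 0.80, but neither was called in batch 2 alone (0.74, adjusted p = 0.0990, and 0.80, adjusted p = 0.0508, edgeR).

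MTCO1P12 was not called after ATP6, ATP8, COX2, ND3 or ND4L silencing. Its log2 fold changes there were 0.38 (adjusted p = 0.373), 0.35 (0.260), 0.40 (0.155), 0.28 (0.9995) and 0.50 (0.0639, edgeR). In each of these groups every library lay above the 4 control libraries. The share of all tested genes that separated in this way was not determined. The ND4L call was made with the replicate number as a block (0.49, adjusted p = 0.0380) and in 4 fits that left out 1 library (ATP6 replicate 3, COX3 replicate 4, ND4L replicate 2 or ND5 replicate 2). After ND1 and ND2 silencing its libraries overlapped with the control, at log2 fold changes of −0.03 (adjusted p = 0.963) and 0.11 (adjusted p = 0.998). Against its own batch's control, MTCO1P12 was higher in both batches in 8 of 11 treatments and lower in both in 1. These comparisons share the 4 control libraries, which were close together for this gene (24.5 to 28.3 CPM). With the mean of the other 10 treatments in place of the control, MTCO1P12 had a log2 fold change of −1.26 after COX1 (adjusted p = 1.69e-12), 0.55 after ND5 (adjusted p = 9.20e-05) and 0.50 after CYTB silencing (adjusted p = 0.00137), while that after COX3 was 0.32 (adjusted p = 0.259). MT-CO1 in that setting had 0.28 after ND5 (adjusted p = 0.000494), 0.29 after CYTB (adjusted p = 0.000639) and 0.24 after COX3 silencing (adjusted p = 0.02002). For these treatments the reference holds the COX1 libraries, in which both genes were lower, and this lowers the reference. Against the control, MT-CO1 had 0.12, 0.13 and 0.09 in these treatments and was not called.

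**Figure D3:**
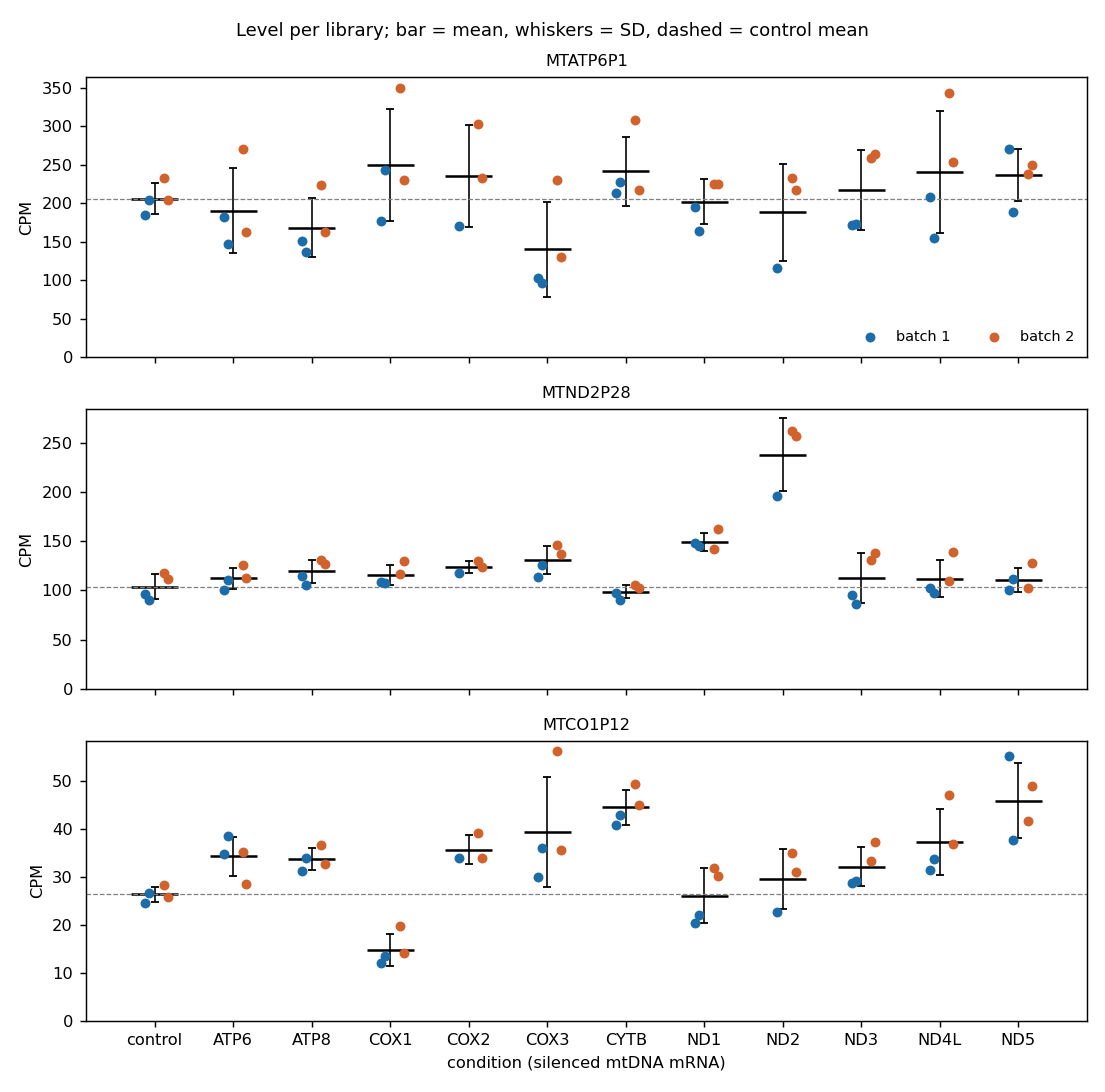
Level of MTATP6P1, MTND2P28 and MTCO1P12 in CPM by condition, 1 point per library coloured by batch, with the mean (bar), SD (whiskers) and the control mean (dashed line). MTND2P28 was highest after ND2 silencing (195.5 to 262.0 CPM), MTCO1P12 was lowest after COX1 silencing (11.98 to 19.7 CPM), and MTATP6P1 spread widely within most conditions.

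MTATP6P1, the copy of the ATP synthase subunit gene MT-ATP6, had the most counts but passed the test in none of the 11 treatments (0 at the adjusted threshold, 2 at an unadjusted p of 0.05 in edgeR). These 2 were after ATP8 and COX3 silencing, where 10.2% and 10.4% of all tested genes were at that unadjusted p. In the control it had 203.7, 184.0, 203.7 and 232.4 CPM. After ATP6 silencing, aimed at its mtDNA gene, it had 146.7, 182.2, 162.3 and 269.8 CPM, which overlapped with the control. The log2 fold change was −0.13 ± 0.15 (adjusted p = 0.83, edgeR), beside −0.20 ± 0.05 for MT-ATP6 (adjusted p = 0.207). MT-ATP8 and MT-ATP6 lie on 1 bicistronic mRNA, and in the paper the ATP8 chimera lowered ATP6 synthesis too. After ATP8 silencing MTATP6P1 had a log2 fold change of −0.31 ± 0.15 (adjusted p = 0.480, edgeR). That of MT-ATP6 was −0.24 ± 0.05 (adjusted p = 0.0649). The largest difference was after COX3 silencing, with 96.4, 102.8, 130.5 and 230.2 CPM. Of these libraries, 3 lay below the control range and replicate 4, the deepest library, within it. The log2 fold change was −0.60 ± 0.15 (adjusted p = 0.0701, edgeR), and MT-ATP6 fell by 0.33 ± 0.05 on the log2 scale (adjusted p = 0.000696). It passed the threshold without COX3 replicate 4 (−0.85, adjusted p = 0.00309) and without ND5 replicate 2 (−0.60, adjusted p = 0.0486), a library of another treatment that enters the shared spread, and with the replicate number as a block (−0.62, adjusted p = 0.00776). Against the mean of the other 10 treatments it was −0.62 (adjusted p = 0.0130).

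The spread within conditions, taken over both batches, differed between the members. The median coefficient of variation among libraries of 1 condition was 26.0% for MTATP6P1, 14.8% for MTCO1P12 and 10.2% for MTND2P28 in CPM, and 10.7%, 5.20% and 9.87% for MT-ATP6, MT-CO1 and MT-ND2. The values of MTATP6P1 and MTCO1P12 thus lay above those of their mtDNA genes, while MTND2P28 at 10.2% lay close to MT-ND2. Tests of a difference between the batches in the effect of a treatment gave 0 of 44 at the adjusted threshold in edgeR (4 at an unadjusted p of 0.05, lowest adjusted p = 0.510). The share of all genes at that unadjusted p was not determined for these tests.

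MTND1P23 and the 3 members below the filter had too few counts for firm statements. MTND1P23 had 2, 8, 8 and 10 counts in the control libraries and 21, 15, 24 and 11 after ND1 silencing, or 0.0887, 0.353, 0.396 and 0.474 CPM against 0.818, 0.652, 1.06 and 0.451 CPM. The groups overlapped, since ND1 replicate 4 lay below control replicate 4. The log2 fold change was 1.20 ± 0.39 (adjusted p = 0.169, edgeR), while MT-ND1 rose by 0.79 ± 0.07 (adjusted p = 3.50e-12). After ATP6 silencing MTND1P23 had 12, 12, 14 and 12 counts, all above the control in CPM, at a log2 fold change of 0.73 ± 0.40 (adjusted p = 0.609, edgeR).

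The copies of the other subunit genes stayed near 0 in every condition. MTCO2P12 had 5, 2 and 2 counts after COX2 silencing and 2, 2, 3 and 6 in the control. MTCO3P12 had 3, 4, 1 and 21 counts after COX3 silencing, the last in the deepest library, and 1, 1, 3 and 2 in the control. MTATP8P1 had 0, 0, 0 and 1 count after ATP8 silencing and 1, 0, 0 and 0 in the control. A difference for these 3 was not detectable at this depth.

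A ratio of counts within a library does not depend on its size or normalization, and was used to ask whether a pseudogene and its mtDNA gene moved by the same factor in the treatment aimed at that gene. The count of MTCO1P12 was 0.216%, 0.221%, 0.208% and 0.235% of that of MT-CO1 in the control libraries and 0.293%, 0.302%, 0.292% and 0.348% after COX1 silencing, so all 4 treated libraries were higher. The log2 ratio differed by 0.49 (0.45 in batch 1 and 0.53 in batch 2), with p = 0.0286 in a two-sided exact permutation test, the smallest that 4 against 4 libraries can give, and 0.200 adjusted over the 7 pairs. For MTND2P28 the share of MT-ND2 was 4.30%, 4.74%, 4.63% and 4.57% in the control and 4.95%, 4.74% and 5.37% after ND2 silencing, which overlapped by replicate 3. The log2 ratio differed by 0.14 (exact permutation p = 0.114, adjusted 0.267), where 3 against 4 libraries cannot go below 0.0571. For MTATP6P1 after ATP6 silencing the difference was 0.05 (exact permutation p = 0.743, adjusted 0.867). Among the rarely counted members the differences were 0.47 for MTND1P23, 0.96 for MTCO3P12, −0.01 for MTCO2P12 and −0.23 for MTATP8P1 (adjusted p of 0.267 to 0.914, exact permutation tests), and for MTND1P23 they were 1.07 in batch 1 and −0.12 in batch 2. None of the 7 pairs passed the adjusted threshold. MTCO1P12 was at the smallest possible p and still had 0.200 after adjustment. A single pair therefore could not pass with these numbers of libraries, and no equality of factors follows.

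The same ratio was then taken in all 11 treatments for the 3 members with over 100 counts in every library (33 exact permutation tests, chosen after the aimed treatments had been examined). The ratio of MTCO1P12 to MT-CO1 lay above all 4 control libraries in 9 of 11 treatments, all but ND1 and ND2, by a factor of 1.18 to 1.59 over the 11. The p was 0.0286 in 8 of these treatments, the smallest that 4 against 4 libraries can give. The lowest adjusted value was 0.0725, so none passed. The largest factor was 1.59 after ND5 silencing, with shares of 0.271%, 0.467%, 0.340% and 0.346%, followed by 1.54 after CYTB silencing. The ratio of MTND2P28 to MT-ND2 lay above the control libraries in 6 of 11 treatments, by a factor of 1.03 to 1.17 over the 11, and that of MTATP6P1 to MT-ATP6 in 0, with factors of 0.805 to 1.14. In both batches the difference was above 0 in 11 of 11 treatments for MTCO1P12, 10 for MTND2P28 and 2 for MTATP6P1. The same 4 control libraries enter all of these values.

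**Figure D4:**
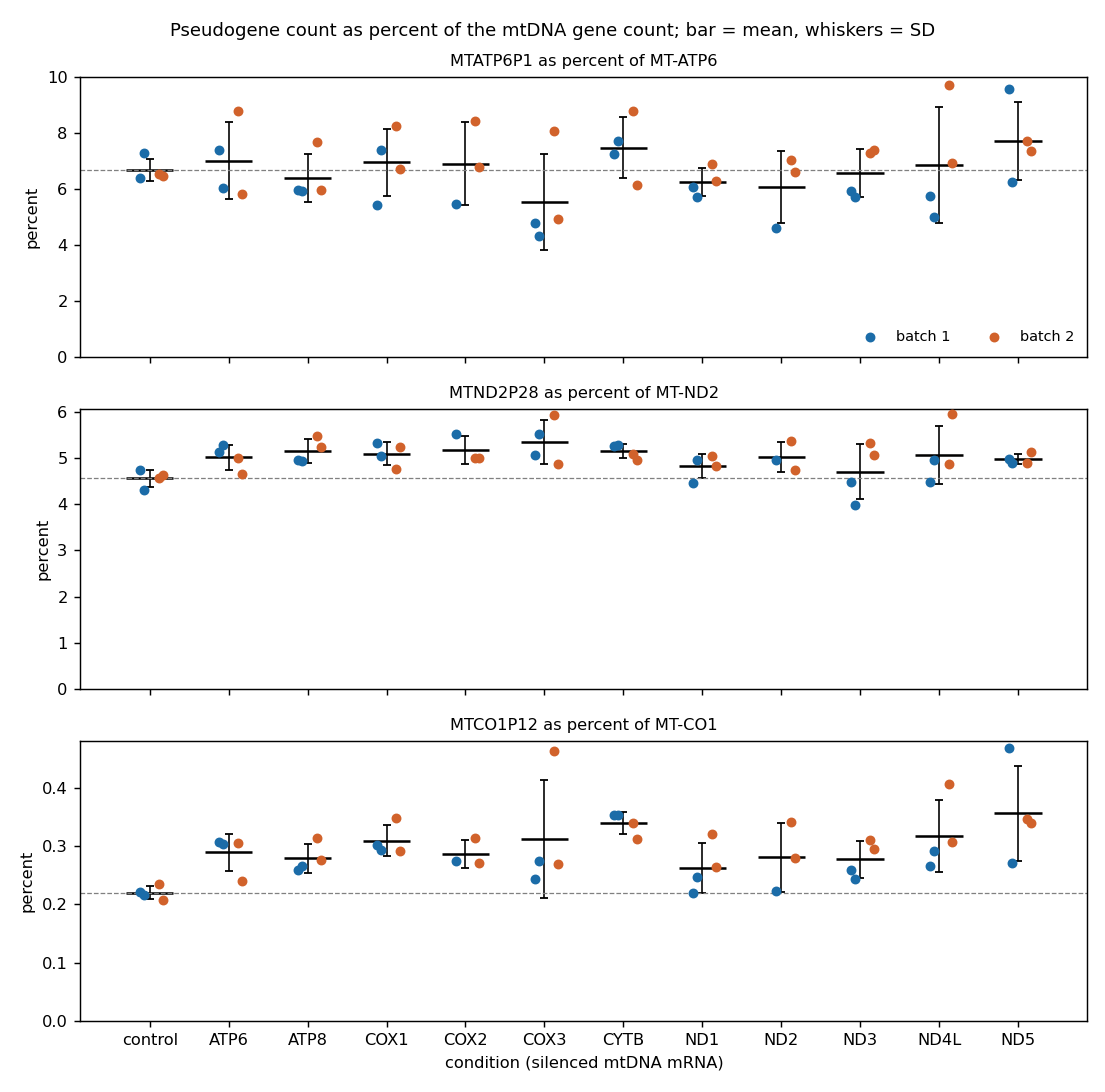
Count of MTATP6P1, MTND2P28 and MTCO1P12 as a percent of the count of the mtDNA gene in the same library, by condition, with the mean (bar), SD (whiskers) and the control mean (dashed line). The 4 control libraries of MTCO1P12 lay between 0.208% and 0.235%, and replicate 4 (batch 2) had the highest share in 9 of 12 conditions for both MTATP6P1 and MTCO1P12.

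The shares were then compared between libraries of 1 condition. Replicate 4 held the highest share in 9 of 12 conditions for both, with medians of 7.91% and 0.330% against 5.95% and 0.271% in replicate 1, while for MTND2P28 it did so in 5. ND5 replicate 2 was high for both (9.60% and 0.467%), as were COX3 replicate 4 (8.10% and 0.463%) and ND4L replicate 4 (9.72% and 0.406%). After subtraction of the mean of each batch within each condition, the log2 ratios of MTATP6P1 and MTCO1P12 had Pearson's r = 0.77 (permutation p = 0.00530 within batch and condition, adjusted 0.0795 over 15 relations) and Spearman's rho = 0.63 (permutation p = 0.0103, adjusted 0.154) over 46 libraries. Each batch of a condition holds at most 2 libraries, whose values mirror each other after this subtraction, so the 46 points are not independent. Without the 2 most distant libraries, which form 1 such pair (ND5 replicates 1 and 2), r was 0.72. It was 0.70 without COX3 replicate 4. Neither p passed after adjustment. MTND2P28 gave r = 0.03 with MTATP6P1 and 0.35 with MTCO1P12. With the total count of the library r was 0.34 for MTATP6P1 and 0.45 for MTCO1P12, and without the 2 most distant libraries (COX3 replicates 3 and 4) it was −0.28 and −0.26. With the level of AL669831.3, which overlaps the block on the other strand, r was −0.18 and −0.09.

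The level of each tested pseudogene was also set against that of its own mtDNA gene across the 46 libraries, which share batches. For MTATP6P1 and MT-ATP6, whose conditions did not form separate clusters, batch-centred log2 CPM gave Pearson's r = 0.75 and Spearman's rho = 0.65 (permutation p = 1e-05 for both, the smallest that 100000 resamples can give), 0.72 in batch 1 and 0.79 in batch 2, and 0.68 without the 2 most distant libraries. For the other 3, treatments whose mtDNA gene stood apart were left out, a choice made after the values were seen. MTND2P28 and MT-ND2 then gave r = 0.65 over 39 libraries without ND1 and ND2 silencing (permutation p = 2e-05). MTCO1P12 and MT-CO1 gave r = 0.58 over 42 libraries without COX1 silencing (permutation p = 9e-05), and MTND1P23 and MT-ND1 gave 0.30 over 42 without ND1 silencing (permutation p = 0.0591). The permutations above shuffled libraries across conditions, so replicates of 1 condition were treated as independent. With the condition means subtracted as well, libraries were shuffled only within batch and condition. Then r was 0.57 for MTND2P28 (permutation p = 0.00513) and 0.55 for MTATP6P1 (permutation p = 0.0212). It was 0.12 for MTND1P23 (permutation p = 0.412) and 0.05 for MTCO1P12 (permutation p = 0.861). The relation of MTCO1P12 to MT-CO1 thus rests on differences between conditions.

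Ranked by r of batch-centred log2 CPM over the 46 libraries among the tested genes with a mean of at least 1 CPM, the gene most alike was the own mtDNA gene for MTND2P28 (then CA2 at 0.56), for MTCO1P12 (then FZD10 at 0.58) and for MTATP6P1 (next BRI3 at 0.73 and MT-CO3 at 0.70). For MTND1P23 the first gene was METTL8 at 0.59, followed by MT-ND1 at 0.55 and RECQL at 0.52. This order is a description and says nothing of shared control.

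The block stood out from other nuclear mtDNA-like pseudogenes by its counts. Of 387 others in the table, 225 had no count in any library, and all 387 together had 6099 counts against 430152 on the 7 members, which took 98.6% of the sum. The highest of the others per kb were MTND1P8 at 0.430 CPM per kb, MTCO1P28 at 0.412, both on chromosome 16, and MTND4P12 at 0.403 on chromosome 5, followed by MTND2P40 and MTCO2P27. They were below MTND1P23 (mean 1.11 CPM per kb) and above MTCO2P12, MTCO3P12 and MTATP8P1. Of the others, 6 had enough counts to be tested, and of their 66 tests 0 passed the adjusted threshold in edgeR (11 at an unadjusted p of 0.05). Over all tested genes the share at that unadjusted p ran from 3.31% after ND3 to 14.1% after ND4L silencing. The 6 mtDNA mRNAs with no counterpart in the block (MT-ND3, MT-ND4, MT-ND4L, MT-ND5, MT-ND6 and MT-CYB) passed in 4 of 66 tests, 2 higher and 2 lower, and the 7 matching ones in 6 of 77, 3 higher and 3 lower.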

How the data were processed

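RNA of 46 HEK293T libraries was poly(A)-selected and sequenced by the authors, who deposited 1 table of raw gene counts per library column. The submitters' processing notes name the build GRCh38.p12, DESeq2 1.40.2, R 4.3.0 and limma 3.56.2; the aligner, the counter, its use of strand and its treatment of reads with several matches are not given in the sources used here. The sample records name 50-base single-end reads, while the study's methods name paired ends. Genes were kept by edgeR's filterByExpr with a minimum count of 10 (20272 of 58735 genes; 4 of the 7 members), libraries were scaled by TMM, and a quasi-likelihood model with condition and batch over all libraries (edgeR 4.0.16, R 4.3.3) was tested for each treatment against control, with Benjamini-Hochberg adjustment per contrast at 0.05. The fit was checked on simulated data. CPM used the TMM-scaled library sizes. Log2 count ratios with a pseudocount of 0.5 and correlations were tested by permutation (scipy 1.17.1, exact or 100000 resamples). Sequences came from GENCODE v29 transcripts of GRCh38. The named genes were the 7 members, their mtDNA genes, the other mtDNA mRNAs and the genes most alike by correlation. The members and lists were chosen with earlier results of these data known. Deviations of same-numbered libraries from their group means correlated at 0.116 to 0.329 in all 42 treatment and control pairs, and the study's batches follow the replicate numbers, so a replicate block was tried as an alternative. The study's methods describe the replicates as biological, all of 1 cell line, so p-values measure the spread between such replicates of that line. In 66 pairs of replicates the counts differed by more than sampling noise (chi-square per degree of freedom of 3.24 to 24.5). Counts of amplified reads are not independent molecules, so the limit given for a count of 0 covers counting error only. For 2 members, 1 gene each among those most alike is not reported here.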

Additional observations from a re-analysis of the deposited data

Results flagged for a closer look

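In 11 cases 1 library stood apart from the other 3 of its condition by Dixon's test at the 95% level. The test covered 56 groups for each of 2 measures, CPM and the percent of the mtDNA gene's count, and chance alone gives about 1 in 20. COX3 replicate 4, the deepest library, stood apart in the share of MT-ATP6 taken by MTATP6P1, 8.10% against 4.34% to 4.95%, and in the share of MT-CO1 taken by MTCO1P12, 0.463% against 0.243% to 0.274%. MTATP6P1 was also high in replicate 4 of ATP8, with a share of 7.69% against 5.95% to 5.98%, and in replicate 4 of CYTB, with 307 CPM against 213 to 227 CPM. Its share was high in control replicate 1, 7.30% against 6.42% to 6.56%. The share of MTCO1P12 was low in ATP6 replicate 3, 0.241% against 0.303% to 0.307%.

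The other cases rest on few counts. MTND1P23 had 0.645 CPM in ATP8 replicate 2 against 0.283 to 0.317 CPM, and a share of 0.00623% of MT-ND1 in control replicate 1 against 0.0245% to 0.0270%. MTCO2P12 had 0.303 CPM in ND3 replicate 4 against 0.0984 to 0.120 CPM. MTCO3P12 had no count in ATP6 replicate 2, a level of 0 CPM against 0.130 to 0.153 CPM and a share of 0% against 0.00269% to 0.00314% of MT-CO3.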

How the results depend on the processing

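The 7 calls among the members became 3 without a batch term, 19 without the filter on low counts, 12 with only the libraries compared and 2 in batch 2 alone, and ran from 5 to 9 when 1 library was left out. The replicate block gave 9 calls, adding MTATP6P1 after COX3 and MTCO1P12 after ND4L silencing as given above, and changed no other call. DESeq2 gave 8, adding MTCO1P12 after ND4L silencing (0.49, adjusted p = 0.0242) but not MTATP6P1 after COX3 silencing (adjusted p = 0.0583). Leave-one-out log2 fold changes ran from −0.965 to −0.794 for MTCO1P12 after COX1, 1.11 to 1.21 for MTND2P28 after ND2, 0.915 to 1.43 for MTND1P23 after ND1 and −0.246 to −0.00258 for MTATP6P1 after ATP6 silencing. MTCO1P12 after COX1 silencing was not called in batch 2 alone (−0.697, edgeR adjusted p = 0.146), where fewer libraries were tested. MTND1P23 after ND1 silencing was called with its counts added to those of MT-ND1 (0.791, edgeR adjusted p = 3.41e-12), a sum that is nearly all MT-ND1 and so repeats its call. Such sums gave no call for MTCO1P12 after COX3, CYTB or ND5 silencing (edgeR adjusted p = 0.708, 0.375 and 0.576). MTND2P28 after COX3 silencing was not called either (edgeR adjusted p = 0.505), while MTATP6P1 after COX3 silencing was (−0.345, adjusted p = 0.000684). Without a batch term MTND2P28 after ND1 (0.53, edgeR adjusted p = 0.166) and MTCO1P12 after CYTB silencing (0.76, adjusted p = 0.0638) were not called, nor in batch 2 alone (adjusted p = 0.0882 and 0.0508).

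With the other mtDNA mRNAs as denominator the log2 ratio turned to −1.05 for MTCO1P12 after COX1 silencing, since that denominator does not hold the silenced mRNA. For ATP6 silencing the denominator left out MT-ATP6 but held MT-ATP8 of the same mRNA, and the log2 ratio of MTATP6P1 turned to −0.113. With a pseudocount of 5 that of MTCO2P12 was 0.0372, and it was 1.38 in batch 1 and −0.913 in batch 2; that of MTCO3P12 was 1.65 and 0.259; the cause was not tested. Leave-one-out log2 ratios ran from −0.0656 to 0.132 for MTATP6P1, −0.521 to 0.237 for MTATP8P1, 0.429 to 0.521 for MTCO1P12, −0.497 to 0.278 for MTCO2P12, 0.792 to 1.28 for MTCO3P12, 0.0234 to 0.692 for MTND1P23 and 0.0872 to 0.178 for MTND2P28. Their signs turned without ATP6 replicate 4 for MTATP6P1 (−0.0656), without control replicate 1 for MTATP8P1 (0.237) and without COX2 replicate 3, COX2 replicate 4 or control replicate 4 for MTCO2P12 (0.278, 0.189 and 0.258). The correlation with the mtDNA gene no longer passed for MTND1P23 (0.122) and MTCO1P12 (0.048) with condition means subtracted, nor for MTND1P23 without the ND1 libraries (0.298). MTCO2P12, MTCO3P12 and MTATP8P1 gave no fold change, and MTND1P23 no adjusted p in DESeq2 and none under the stricter filter. Depth limits these 4 members.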
